A study of Homo sapiens with 6 samples.

Results

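Nuclear pore and nuclear transport genes were examined in macrophages in which the phosphatase DUSP6 had been silenced. The set held 39 named genes out of 63241 gene rows: 27 nucleoporins, 11 transport receptors and the small GTPase RAN. It was put forward because NUP214 was lower after silencing, and the members were then listed by function. The values of NUP214 are therefore given as a description with no test, and the counts of called genes and the medians of fold changes cover the other 38. All 39 had a mean of at least 1 TPM, the level needed for testing, and each matched 1 row by symbol.

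The siDUSP6 group held 3 RNA sequencing libraries of THP-1-derived macrophages transfected with siRNA to DUSP6, labelled as a DUSP6 knockdown. The siNC group held 3 libraries of the same cells transfected with a negative control siRNA, labelled as wild type. Both groups were labelled 24 h. THP-1 cells are an established line of human monocytic leukaemia that can be turned into macrophage-like cells, so all libraries share 1 leukaemic background. The labels do not say whether replicates were separate cultures, so the p-values reflect the spread among these libraries alone, which may be technical.

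Proteins and RNA cross the nuclear envelope through nuclear pore complexes, each built from many copies of nucleoporins. Scaffold nucleoporins form the outer and inner rings, membrane nucleoporins anchor them, and nucleoporins with phenylalanine-glycine repeats fill the channel. Importins carry cargo inward and exportins carry it outward, and RAN, loaded with GTP in the nucleus, sets the direction. In macrophages, signalling proteins such as ERK and NF-kB pass through these pores to reach their targets.

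Values are TPM, a share of each library's transcripts scaled by length, from which read depth cannot be known. The number of genes at 1 TPM or more was 14487 to 14604 in siDUSP6 and 14615 to 14680 in siNC. DUSP6 measured 227, 218 and 222 TPM in siDUSP6, against 359, 368 and 378 TPM in siNC. Its log2 fold change, on the log2(TPM + 1) scale used throughout, was -0.73 (SE 0.0267, limma adjusted p = 8.667e-05). For siDUSP6 replicates 2 and 3 the treatment label names DUSP7 and DUSP8 instead of DUSP6, while title, library name and genotype name DUSP6. DUSP7 measured 39.6, 39.5 and 37.2 TPM in siDUSP6, against 49.5, 50.1 and 47.1 TPM in siNC (log2 fold change -0.33, limma adjusted p = 0.0111). DUSP8 overlapped, at 1.51, 1.54 and 1.62 TPM in siDUSP6, against 2.11, 1.40 and 1.83 TPM in siNC (limma adjusted p = 0.7191). All 10 macrophage markers were tested, of which 2, CD14 and CTSB, rose and 0 fell. Over all tested genes 2.37% were called higher and 1.49% lower. LYZ, ITGAM, CSF1R and TYROBP did not pass but were lower without overlap, as were 14.9% of all tested genes. The summed level of the 10 markers was 5180 to 5238 TPM in siDUSP6 and 5075 to 5167 TPM in siNC. CTSB alone stood at 1185 to 1225 TPM in siDUSP6 and 1039 to 1050 TPM in siNC. The T cell markers CD3D and CD2, the B cell marker MS4A1 and the epithelial marker EPCAM were listed at 0 in every library. In bulk RNA, fewer cells of a type and less RNA per cell cannot be told apart.

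Transport genes spanned a wide range of levels, with RAN and several receptors at the top. RAN was the most abundant member, at 549 ± 35.2 TPM in siDUSP6 and 552 ± 19.97 TPM in siNC (SD, n = 3 each). Next in siNC came KPNB1 (196 TPM), XPO1 (139 TPM), KPNA2 (130 TPM), RANBP2 (117 TPM) and IPO7 (116 TPM). The lowest were NUP153 (14.7 TPM), NUP210 (18.3 TPM), AAAS (19.6 TPM), NUP88 (19.9 TPM), NUP214 (20.1 TPM) and NUP35 (20.1 TPM), again as siNC means. Summed over genes, the 26 nucleoporins other than NUP214 held 812, 815 and 804 TPM in siDUSP6, against 868, 856 and 876 TPM in siNC, and the groups did not overlap. The 12 receptor and RAN genes together held 1511, 1418 and 1451 TPM in siDUSP6, against 1482, 1536 and 1512 TPM in siNC, and the groups overlapped.

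**Figure D1:**
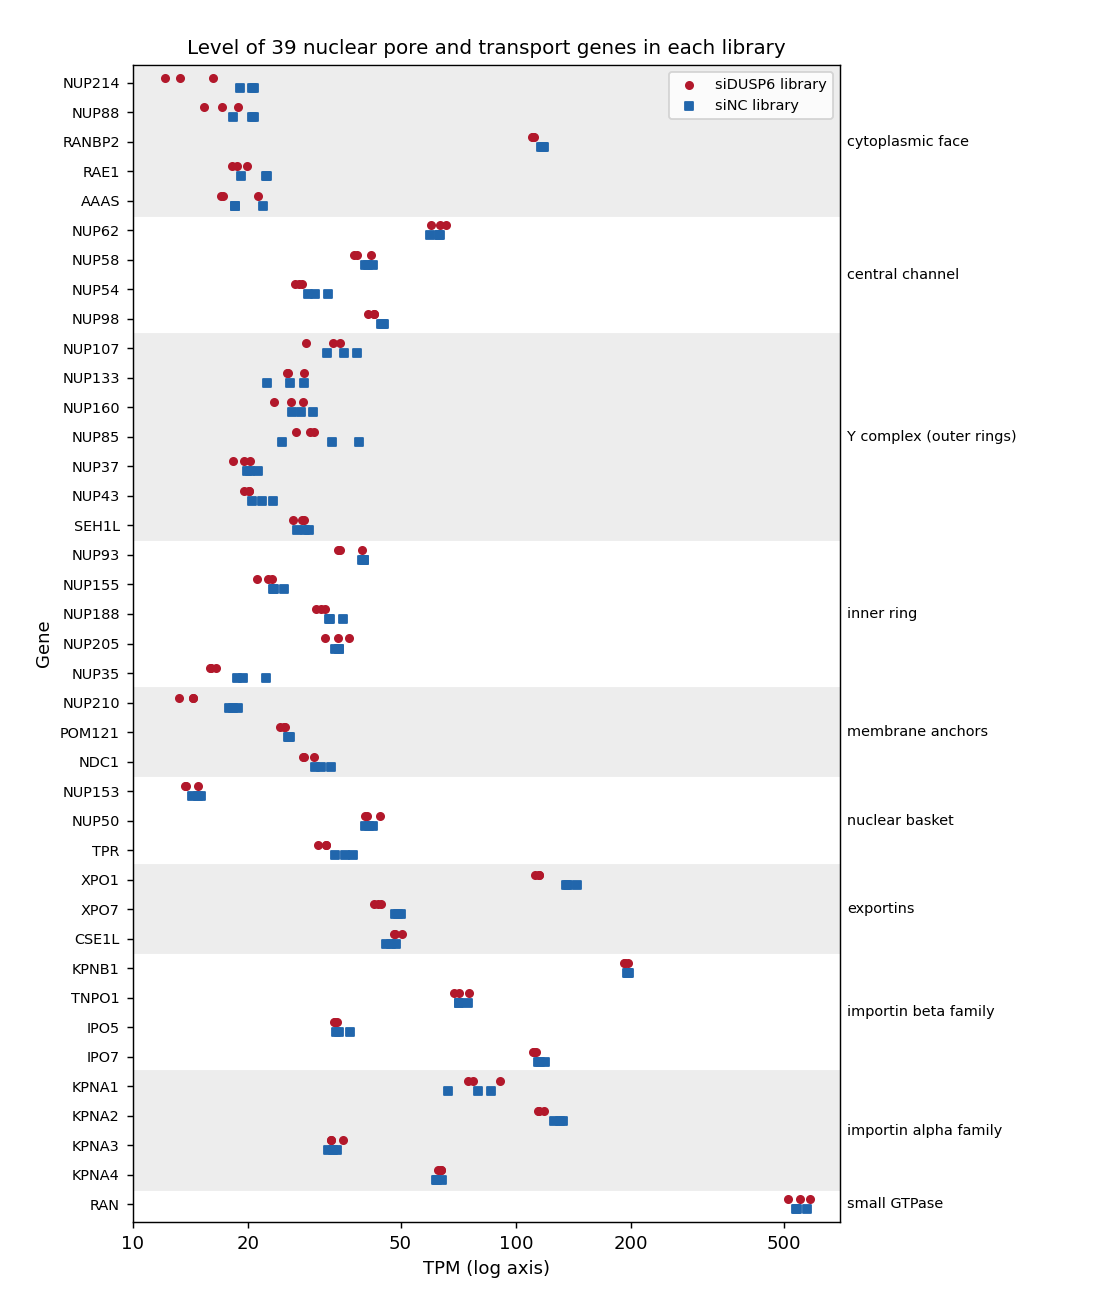
TPM of each gene (rows, grouped by role) on a log axis, with 1 circle per siDUSP6 library and 1 square per siNC library. RAN lies far to the right of the other genes, at a mean of 549 TPM in siDUSP6 and 552 TPM in siNC, and most nucleoporins lie below 50 TPM.

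NUP214, a cytoplasmic nucleoporin with phenylalanine-glycine repeats that binds exportin complexes and takes part in mRNA export, gave the question its start. It measured 12.2, 16.2 and 13.3 TPM in siDUSP6, against 19.1, 20.7 and 20.5 TPM in siNC. The groups did not overlap, and siDUSP6 replicate 2 was the highest of its group. The difference in mean TPM was -30.9%, or -0.51 on the log2 scale, the lowest value among the 39 genes. The spread was wider in siDUSP6 (14.9% of the mean) than in siNC (4.51%). NUP214 (ENSG00000126883) is a protein-coding gene on the plus strand of chromosome 9, from 131125561 to 131234670 in GRCh38.

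Of the other 38 genes, 4 fell and 0 rose at a limma adjusted p under 0.05, and 34 did not pass. The 4 were the exportins XPO1 and XPO7, the importin alpha KPNA2 and the membrane nucleoporin NUP210. They make up 10.5% of the 38, beside 1.49% of all 14602 tested genes called lower and 2.37% called higher. The set was chosen with the lower level of NUP214 in this same comparison known, so nothing is drawn from these shares. Over all genes 346 were called higher and 218 lower, or 441 higher and 151 lower after median-of-ratios scaling. The median log2 fold change of the 38 genes was -0.0841, beside -0.0254 for all tested genes. Of the 38, 30 had a fold change below 0 (78.9%), as did 57.9% of all tested genes.

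At the looser count of an unadjusted limma p under 0.05, 13 of the 38 were lower and 0 higher, beside 11.2% of all tested genes lower and 8.03% higher. The groups did not overlap, with siDUSP6 lower, for 16 of the 38, beside 14.9% of all tested genes. None of the 38 had every siDUSP6 library above every siNC library, which 10.2% of all tested genes had. The smallest p of an exact two-sided permutation test with 3 libraries against 3 is 0.1, and the p-values of single genes come from limma's model. The calls of NUP210, XPO7 and KPNA2 did not survive leaving out any 1 of the libraries, while that of XPO1 was kept in each of these 6 fits. Because of the treatment label of replicates 2 and 3, siDUSP6 replicate 1 was also set alone against siNC. Its log2 fold changes were -0.68 for NUP214, -0.33 for NUP210, -0.27 for XPO1, -0.20 for XPO7 and -0.17 for KPNA2, and 0 of the 38 genes were called with so few libraries.

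Markers of cycling cells were lower alongside these genes. Of 16 such markers 7 fell and 0 rose, beside 1.49% of all tested genes called lower and 2.37% called higher. The median log2 fold change of the markers was -0.19, beside -0.0254 for all tested genes. The summed level of the markers was 704 to 726 TPM in siDUSP6 and 833 to 841 TPM in siNC. All 16 were detected. For 15 of 16 siDUSP6 was lower without overlap, as for 14.9% of all tested genes. The lowest fold change was that of MCM2, a subunit of the replicative helicase, at 16.7, 15.7 and 16.6 TPM in siDUSP6, against 23.5, 22.5 and 21.3 TPM in siNC. The part of cycling cells in the lower levels of the transport genes was not tested.

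**Figure D2:**
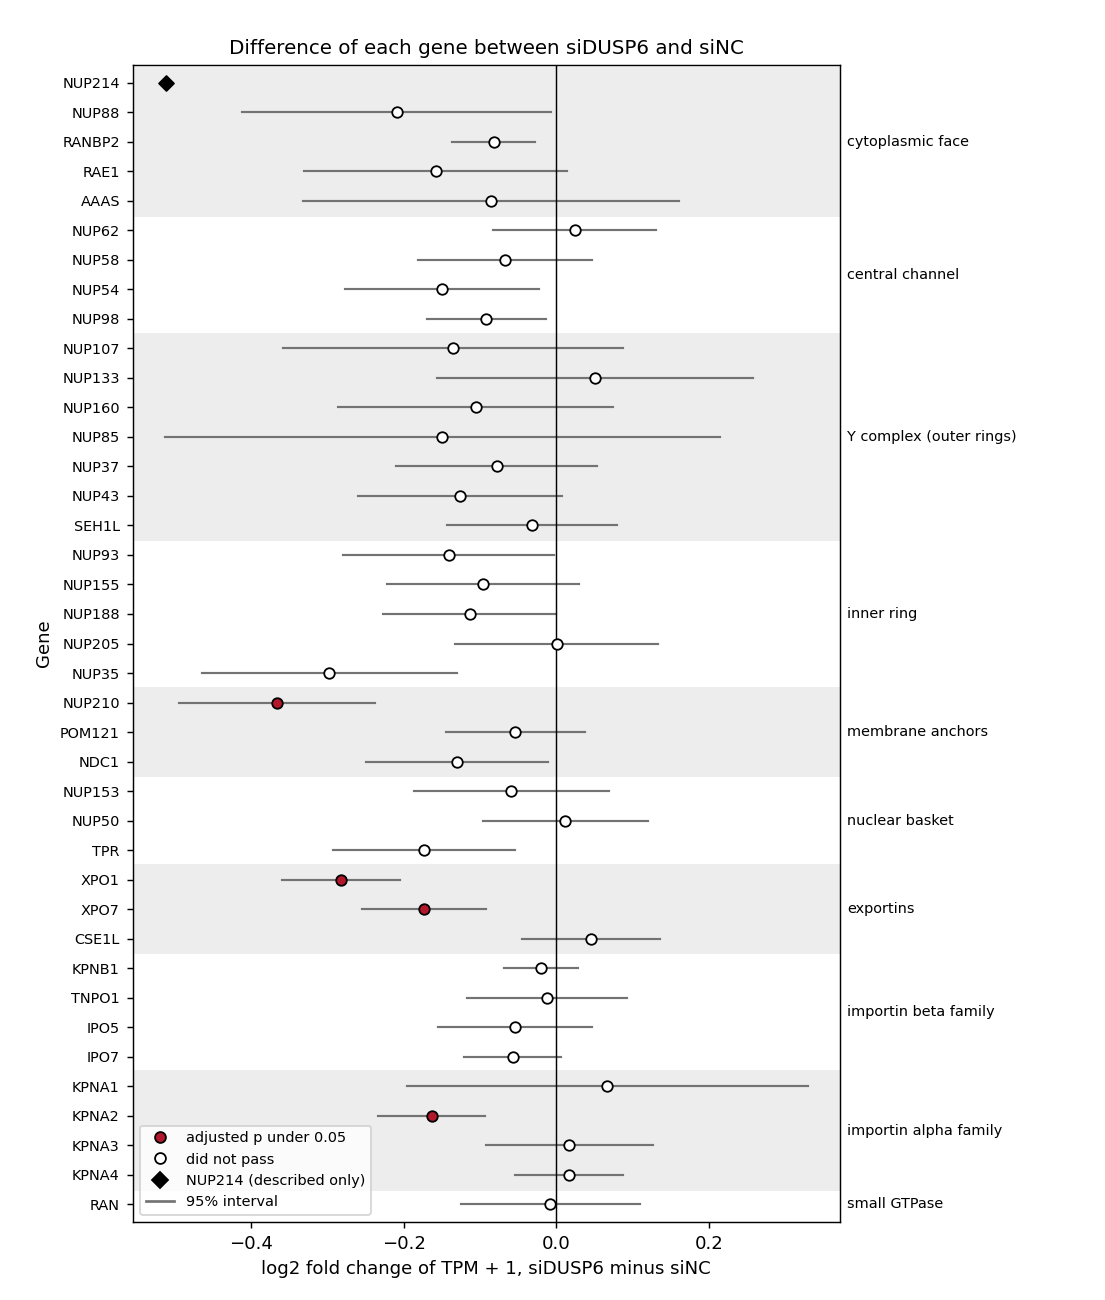
Log2 fold change of TPM + 1, siDUSP6 minus siNC, for each gene (rows, grouped by role), with its 95% interval from limma. NUP210, XPO1, XPO7 and KPNA2 are filled as called, NUP214 is shown as a diamond with no interval because its difference is given as a description, and the other 34 are open.

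Of the 3 listed exportins 2 fell, beside 1.49% of all tested genes called lower. Of 4 exportins in the wider list read below, XPO4, XPO5, XPO6 and XPOT, 0 passed, with log2 fold changes from -0.11 to 0.0317. XPO1, also called CRM1, carries proteins with leucine-rich export signals and some RNAs out of the nucleus. It measured 115, 115 and 112 TPM in siDUSP6, against 137, 135 and 145 TPM in siNC. Every siDUSP6 library lay below every siNC library, and the gap exceeded the spread within either group. Its log2 fold change was -0.28 (95% interval -0.36 to -0.21, limma adjusted p = 0.006743), a change of -18.0% in mean TPM. The XPO1 call was lost without the variance trend (adjusted p = 0.06366). XPO1 (ENSG00000082898) is a protein-coding gene of chromosome 2, minus strand, from 61477849 to 61538626. Its antisense neighbour AC016727.1, which shares exon positions, averaged 2.79 TPM over the 6 libraries.

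XPO7, an exportin with a broad range of cargo, measured 42.7, 44.4 and 43.7 TPM in siDUSP6, against 50.3, 49.3 and 48.3 TPM in siNC, again without overlap. Its log2 fold change was -0.17 (95% interval -0.26 to -0.09, limma adjusted p = 0.04509), and left-out libraries gave adjusted p of 0.0944 to 0.1375. The call was also lost after median-of-ratios scaling (adjusted p = 0.06866) and after quantile normalization (0.06257). XPO7 (ENSG00000130227) is on chromosome 8, plus strand, from 21919671 to 22006585. CSE1L, the exportin that returns importin alpha to the cytoplasm, measured 48.9 ± 1.29 TPM in siDUSP6 and 47.3 ± 1.39 TPM in siNC (SD, n = 3 each; limma adjusted p = 0.5733). Its 95% interval on the log2 scale ran from -0.045 to 0.1363.

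Importin alphas bind the classical import signal of the cargo and join it to importin beta. KPNA2, one of 4 listed, measured 115, 118 and 114 TPM in siDUSP6, against 126, 133 and 130 TPM in siNC. The groups did not overlap, and its log2 fold change was -0.16 (95% interval -0.23 to -0.09, limma adjusted p = 0.03469). Left-out libraries gave adjusted p of 0.05609 to 0.1127, and median-of-ratios scaling gave 0.05162. KPNA2 (ENSG00000182481) is on chromosome 17, plus strand, from 68035519 to 68046842. It is uncertain to the extent that its pseudogene KPNA2P3 took reads from it: that row measured 10.8 ± 0.759 TPM in siDUSP6 and 11.5 ± 0.582 TPM in siNC (SD, n = 3 each).

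The other 3 importin alphas did not pass. KPNA3 and KPNA4, close relatives of each other, measured 33.8 ± 1.52 and 63.4 ± 0.675 TPM in siDUSP6, and 33.3 ± 0.857 and 62.7 ± 1.24 TPM in siNC (SD, n = 3 each). KPNA1 varied more between libraries, at 90.9, 74.8 and 77.2 TPM in siDUSP6, against 66.4, 79.8 and 86.1 TPM in siNC. The groups overlapped, and the KPNA1 interval on the log2 scale ran from -0.20 to 0.3292. An antisense gene, WDR5B-DT, shares exon positions with KPNA1 on the other strand and averaged 40.8 TPM in siDUSP6 and 32.2 TPM in siNC. Whether the counting used strand is not given in the sources used here, so reads of KPNA1 and that partner may not be told apart.

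None of the 4 listed importin beta family genes passed, and their fold changes lay between -0.06 and -0.01. KPNB1, importin beta itself, measured 193, 191 and 196 TPM in siDUSP6, against 197, 195 and 196 TPM in siNC, with overlapping groups. Its interval was narrow, from -0.07 to 0.0283 on the log2 scale (limma adjusted p = 0.6475). The antisense gene AC015674.1 shares exon positions with KPNB1, so the same limit of strand applies. It measured 149, 160 and 145 TPM in siDUSP6, against 172, 171 and 238 TPM in siNC, where replicate 3 lifted the mean. IPO7, which imports ribosomal proteins and histones, did not overlap between groups, at 112 ± 1.08 TPM in siDUSP6 and 116 ± 2.53 TPM in siNC (SD, n = 3 each; limma adjusted p = 0.302). IPO5 measured 33.8 ± 0.282 and 35.2 ± 1.53 TPM, and TNPO1, the receptor for the PY-type import signal, 71.8 ± 3.38 and 72.4 ± 2.39 TPM, in siDUSP6 and siNC in that order. RAN itself had a log2 fold change of -0.0079 (95% interval -0.13 to 0.1094, limma adjusted p = 0.9543).

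**Figure D3:**
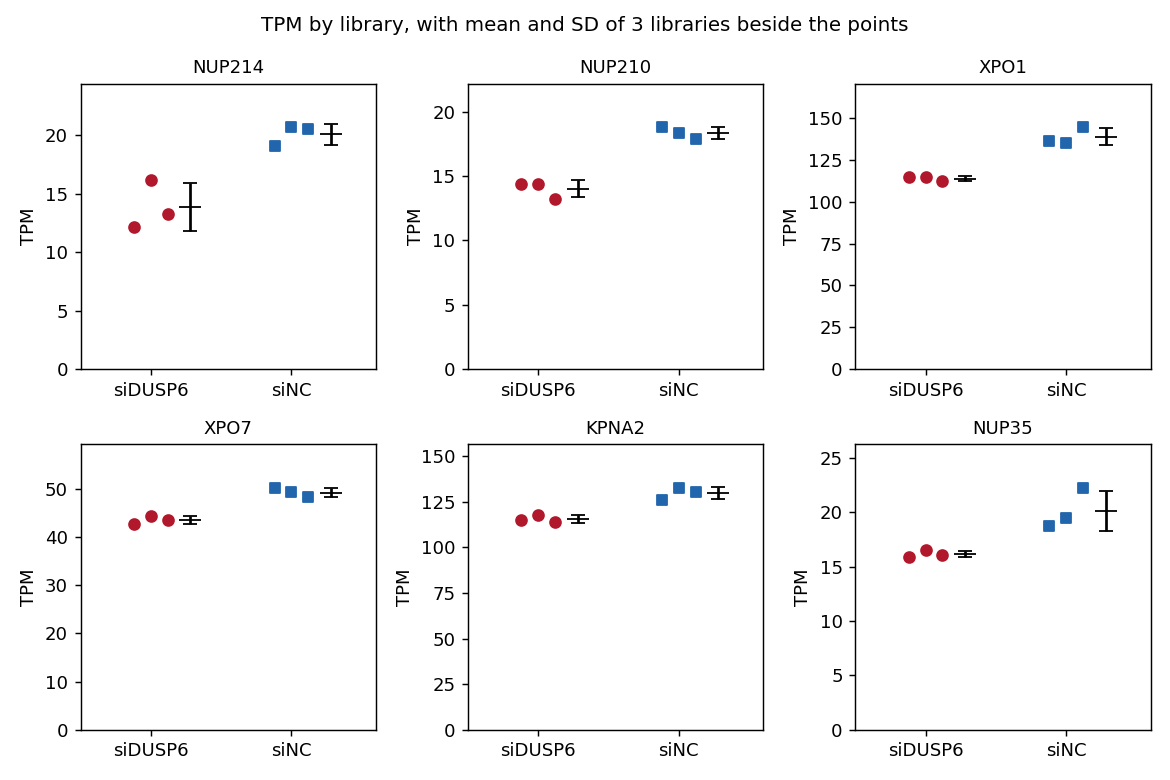
TPM of 6 genes by library, siDUSP6 as circles and siNC as squares, with the mean and SD of 3 libraries beside each group and the axis starting at 0. In each panel the siDUSP6 libraries lie below the siNC libraries. NUP35 is included as the gene with the lowest adjusted p among those that did not pass.

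The membrane anchors included the only nucleoporin of the 26 beside NUP214 that fell. NUP210, also called gp210, spans the nuclear membrane with most of its mass in the lumen. It measured 14.4, 14.4 and 13.2 TPM in siDUSP6, against 18.8, 18.3 and 17.9 TPM in siNC. Its groups did not overlap, and the mean changed by -23.6%. Its log2 fold change was -0.37 (95% interval -0.49 to -0.24, limma adjusted p = 0.01754), and left-out libraries gave adjusted p of 0.05338 to 0.07336. The call was also lost without the variance trend (adjusted p = 0.05034). NUP210 (ENSG00000132182) is on chromosome 3, minus strand, from 13316235 to 13420309.

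NDC1, an anchor needed for pore assembly, measured 28.5 ± 0.984 TPM in siDUSP6 and 31.3 ± 1.52 TPM in siNC (SD, n = 3 each), without overlap. Its log2 fold change was -0.13 (95% interval -0.25 to -0.01), and it did not pass (limma adjusted p = 0.223). POM121 measured 24.7 ± 0.428 TPM in siDUSP6 and 25.6 ± 0.14 TPM in siNC (SD, n = 3 each; limma adjusted p = 0.5074), also without overlap. It is uncertain, because the near-identical copy POM121C stood at 24.0 to 25.5 TPM in siDUSP6 and 24.6 to 27.1 TPM in siNC, close to POM121 itself.

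In the inner ring, the scaffold that lines the membrane, 0 of 5 genes passed. For 4 of 5 siDUSP6 was lower without overlap, as for 14.9% of all tested genes. NUP35, also called NUP53, measured 15.9, 16.5 and 16.04 TPM in siDUSP6, against 18.7, 19.5 and 22.2 TPM in siNC. Its log2 fold change was -0.30 (95% interval -0.46 to -0.13, limma adjusted p = 0.07463), and siNC replicate 3 was the highest library. NUP93, the hub that joins the ring's parts, measured 34.8, 39.6 and 34.5 TPM in siDUSP6, against 39.7, 40.2 and 40.2 TPM in siNC (limma adjusted p = 0.2522). Here siDUSP6 replicate 2, at 39.62 TPM, all but reached the lowest siNC library, at 39.68 TPM. NUP188 averaged 31.0 TPM in siDUSP6 and 33.6 TPM in siNC (limma adjusted p = 0.2589), and NUP155 22.3 TPM in siDUSP6 and 23.8 TPM in siNC (limma adjusted p = 0.383). NUP205, a relative of NUP188, measured 34.3 ± 2.44 TPM in siDUSP6 and 34.2 ± 0.509 TPM in siNC (SD, n = 3 each).

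The Y complex forms the outer rings and also acts at kinetochores in mitosis. None of its 7 listed genes passed. Of the 7, 6 had a fold change below 0, as did 57.9% of all tested genes. NUP107, the most abundant in siNC, measured 34.8, 33.4 and 28.4 TPM in siDUSP6, against 35.7, 32.1 and 38.4 TPM in siNC, with overlapping groups. Its interval on the log2 scale ran from -0.36 to 0.0878 (limma adjusted p = 0.4946). NUP43 alone of the 7 did not overlap, at 19.9 ± 0.381 TPM in siDUSP6 and 21.9 ± 1.38 TPM in siNC (SD, n = 3 each; limma adjusted p = 0.2883). NUP85 was the least steady member of the whole set, at 26.8, 29.1 and 29.7 TPM in siDUSP6, against 38.9, 24.6 and 33.2 TPM in siNC. NUP133 was the only one of the 7 above 0, at 26.2 TPM in siDUSP6 and 25.4 TPM in siNC (limma adjusted p = 0.8064). The mean TPM of NUP160, NUP37 and SEH1L differed by -7.24%, -5.50% and -2.29%, each with overlapping groups.

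On the cytoplasmic face none of the 4 genes beside NUP214 passed. All 4 had a fold change below 0, as did 57.9% of all tested genes. NUP88, the direct binding partner of NUP214, measured 15.4, 17.1 and 18.8 TPM in siDUSP6, against 18.3, 20.5 and 20.8 TPM in siNC. The groups overlapped by 1 library, siDUSP6 replicate 3, and its log2 fold change was -0.21 (95% interval -0.41 to -0.0073, limma adjusted p = 0.2443). RANBP2, the large filament protein with SUMO ligase activity, measured 111, 110 and 111 TPM in siDUSP6, against 118, 116 and 118 TPM in siNC. Its small difference of -0.08 on the log2 scale (95% interval -0.14 to -0.03) exceeded the spread in both groups but did not pass (limma adjusted p = 0.1112). RANBP2 is uncertain, because reads may be split with its RGPD copies, whose means lay on either side. RGPD6 averaged 11.4 TPM in siDUSP6 and 14.3 TPM in siNC, and RGPD2 12.5 TPM in siDUSP6 and 13.6 TPM in siNC. RGPD8 was also lower in mean, at 6.65 TPM in siDUSP6 and 7.38 TPM in siNC. RGPD5 averaged 7.17 TPM in siDUSP6 and 6.33 TPM in siNC, and RGPD1 6.82 TPM in siDUSP6 and 6.18 TPM in siNC. RAE1, an mRNA export factor, averaged 18.9 TPM in siDUSP6 and 21.3 TPM in siNC, and AAAS, the protein lost in triple A syndrome, 18.5 TPM in siDUSP6 and 19.6 TPM in siNC.

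Of the 4 central channel genes, which hold much of the repeat-rich barrier, 0 passed. NUP98, whose transcript also encodes the scaffold protein NUP96, measured 42.7, 42.5 and 41.2 TPM in siDUSP6, against 45.3, 44.6 and 45.0 TPM in siNC. Its groups did not overlap, and the log2 fold change was -0.09 (95% interval -0.17 to -0.01, limma adjusted p = 0.1952). NUP54 also did not overlap, at 27.2 ± 0.582 TPM in siDUSP6 and 30.3 ± 1.89 TPM in siNC (SD, n = 3 each; limma adjusted p = 0.1943). NUP58, its partner in the channel, averaged 39.4 TPM in siDUSP6 and 41.3 TPM in siNC. NUP62, the most abundant of the 4, measured 65.9, 60.1 and 63.3 TPM in siDUSP6, against 63.1, 59.6 and 63.3 TPM in siNC (limma adjusted p = 0.8271). It is uncertain, since it shares exon positions with IL4I1 on the same strand, which averaged 129 TPM in siDUSP6 and 111 TPM in siNC.

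In the nuclear basket, which faces the nuclear interior, 0 of 3 genes passed. TPR, the long coiled-coil protein of the basket, measured 30.5, 31.9 and 32.0 TPM in siDUSP6, against 33.7, 35.7 and 37.6 TPM in siNC. All siDUSP6 libraries lay below all siNC libraries, and the log2 fold change was -0.17 (95% interval -0.29 to -0.05, limma adjusted p = 0.1225). NUP50, which helps release importin alpha, measured 41.8 ± 2.08 TPM in siDUSP6 and 41.4 ± 0.906 TPM in siNC (SD, n = 3 each; limma adjusted p = 0.9246). NUP153 averaged 14.1 TPM in siDUSP6 and 14.7 TPM in siNC (limma adjusted p = 0.6062). Expressed genes on the other strand share exon positions with further members, so these are uncertain if strand was not used: RABEP1 and RPAIN with NUP88, PGAP2 with NUP98, PCMT1 with NUP43, SH3GLB2 with NUP188 and ATF5 with NUP62.

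The 4 genes printed next are NUP214 and 3 of the 4 that fell, shown so that their promoters can be compared. No promoter was matched for XPO7, the other gene that fell. The RefSeq table on GRCh38.p14 held a promoter, 250 bases before to 50 after the gene start, for 35 of the 39 genes, NUP214 among them. The start is that of a RefSeq transcript and differs from the GENCODE gene start given above: it lies 25 bases after it for NUP214, 13 before it for NUP210, 270 after it for XPO1 and 216 after it for KPNA2. The XPO1 window therefore lies wholly within the GENCODE gene, and most of the KPNA2 window does. The table lists 2 windows each for NUP214 and XPO1, and the first listed was used for every gene. The windows are chr9:131125336-131125635 on the plus strand for NUP214, chr3:13420273-13420572 on the minus strand for NUP210, chr2:61538307-61538606 on the minus strand for XPO1 and chr17:68035485-68035784 on the plus strand for KPNA2. Each reads 5′ to 3′, and capitals mark matches to 4 short motifs searched on both strands: ETS (CCGGAAG), E2F (GCGGGAA or GCGCCAA), CHR (TTTGAA, the cell cycle homology region) and CCAAT.
NUP214: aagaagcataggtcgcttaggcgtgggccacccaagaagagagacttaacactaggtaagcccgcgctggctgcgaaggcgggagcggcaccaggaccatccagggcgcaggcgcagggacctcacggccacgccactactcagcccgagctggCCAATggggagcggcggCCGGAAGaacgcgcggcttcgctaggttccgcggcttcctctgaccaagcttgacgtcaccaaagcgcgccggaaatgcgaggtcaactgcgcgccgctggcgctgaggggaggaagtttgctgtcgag
NUP210: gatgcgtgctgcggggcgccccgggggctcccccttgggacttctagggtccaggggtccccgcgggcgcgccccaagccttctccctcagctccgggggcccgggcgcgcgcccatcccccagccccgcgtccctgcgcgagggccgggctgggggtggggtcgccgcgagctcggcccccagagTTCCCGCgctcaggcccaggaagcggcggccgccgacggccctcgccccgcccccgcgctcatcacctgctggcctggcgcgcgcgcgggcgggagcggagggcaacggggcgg
XPO1: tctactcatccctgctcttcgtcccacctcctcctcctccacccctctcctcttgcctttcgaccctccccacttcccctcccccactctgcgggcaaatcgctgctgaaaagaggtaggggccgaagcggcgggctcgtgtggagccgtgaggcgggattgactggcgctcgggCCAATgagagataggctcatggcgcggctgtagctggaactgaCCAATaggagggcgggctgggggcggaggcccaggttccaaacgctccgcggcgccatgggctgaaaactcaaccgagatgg
KPNA2: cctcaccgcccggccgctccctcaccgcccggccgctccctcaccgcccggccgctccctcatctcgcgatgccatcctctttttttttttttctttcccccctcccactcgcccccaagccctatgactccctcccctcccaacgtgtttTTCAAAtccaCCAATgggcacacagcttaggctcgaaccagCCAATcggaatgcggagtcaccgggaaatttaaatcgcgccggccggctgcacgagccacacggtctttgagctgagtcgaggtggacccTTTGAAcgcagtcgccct

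The 4 promoters did not share 1 of these motifs throughout. NUP214 held an ETS match 79 bases and a CCAAT 96 bases before the RefSeq start. NUP210 held an E2F match 64 bases before it and no CCAAT. XPO1 held 2 CCAAT matches, and KPNA2 held 2 CCAAT and 2 CHR matches. Over the 35 promoters an ETS match occurred in 31.4%, against 10.7% of 27305 promoters of that length, and an E2F match in 28.6%, against 9.3%. A CHR match occurred in 28.6% against 15.4%, a CCAAT in 42.9% against 35.7%, an AP-1 match (TGANTCA) in 2.9% against 7.8%, and a GC box (GGGCGG) in 51.4% against 44.6%. The motifs did not overlap each other in the printed promoters. A match is a description of letters, and the shares were not tested; promoters of all kinds of genes, noncoding included, make up the 27305.

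Other genes of nuclear transport were read from a list of 43 chosen by function, of which 42 were tested. None passed limma's test in either direction, and at an unadjusted p under 0.05 there were 3 lower and 1 higher. At that unadjusted limma p, 11.2% of all tested genes were lower and 8.03% higher. The median log2 fold change of the 42 was -0.0321, beside -0.0254 for all tested genes. The 2 with the smallest p were TNPO2, a relative of TNPO1, and NUP42, a cytoplasmic nucleoporin of mRNA export. TNPO2 measured 19.2, 19.4 and 19.6 TPM in siDUSP6, against 21.2, 23.0 and 21.5 TPM in siNC (limma adjusted p = 0.1205). NUP42 measured 30.6, 31.3 and 30.5 TPM in siDUSP6, against 32.3, 34.4 and 35.1 TPM in siNC (limma adjusted p = 0.159). For both, the groups did not overlap. Of the 7 genes of the RAN cycle, which include the exchange factor RCC1 and the activator RANGAP1, 0 passed, with fold changes from -0.10 to 0.0858. KPNA7 was under the level for testing, at 0 to 0.05 TPM.

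**Figure D4:**
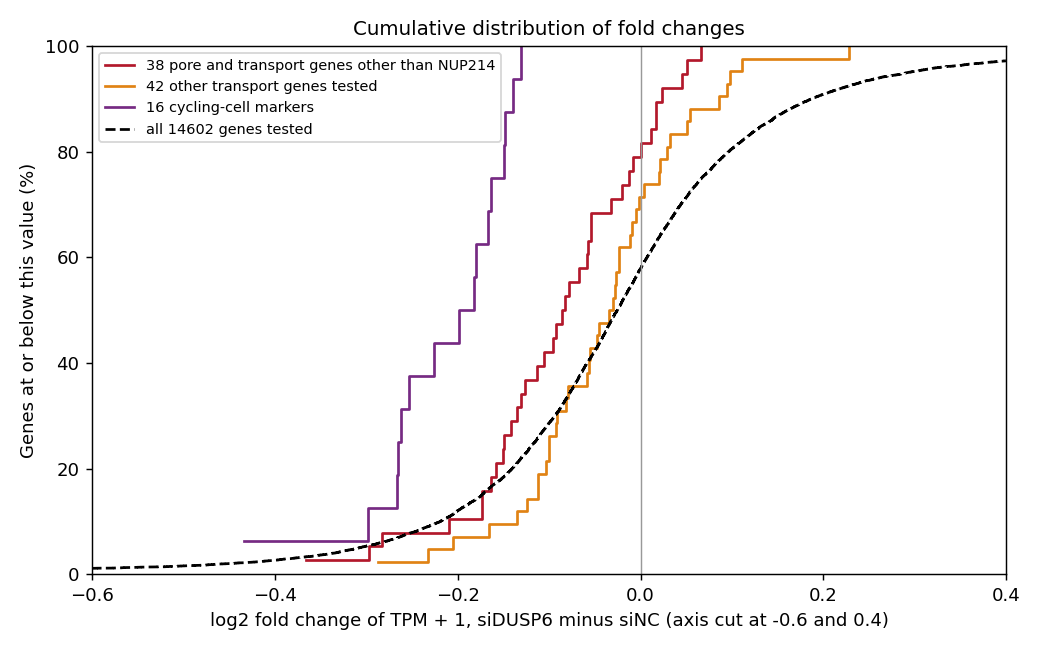
Share of genes (vertical axis, %) at or below each log2 fold change of TPM + 1, siDUSP6 minus siNC (horizontal axis, cut at -0.6 and 0.4), for 4 sets of genes. The curve of the 38 genes passes 50% near -0.08, that of the 42 other transport genes near -0.03 and that of the 16 cycling-cell markers near -0.19, while that of all tested genes passes 50% near -0.03.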

How the data were processed

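Stranded poly(A) libraries were made from total RNA, per the labels' protocols. The authors deposited gene-level TPM for 6 libraries in 1 table. Per the submitters' processing notes, the tools were fastp, HISAT2 and StringTie on GRCh38, with no versions. Annotation and strand setting: not given in the sources used here. TPM keep no depth, so no counting interval is given, and a change in abundant transcripts can shift the others. The 21 rows with no gene ID were left out.

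Log2(TPM + 1) values were fitted in limma 3.58.1 (R 4.3.3) for the 14602 genes that averaged 1 TPM or more. Group was the only term, with a variance trend, two-sided tests, Benjamini-Hochberg adjustment over all tested genes and calls at an adjusted p under 0.05. The fold scale understates changes of low genes. On simulated data of this comparison over 14602 genes the fit called 6% of 50 genes changed 1.1-fold. It called 38% of 50 changed 1.25-fold and 82% of 50 changed 1.5-fold. The changed genes were drawn only from those that averaged at least 5 TPM, so these shares do not cover lower genes. Of 117 calls, 5 were of unchanged genes. Groups came from sample titles. Positions are from GENCODE on GRCh38, and promoters from RefSeq, read with Python 3.11.15.

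Members, lists and tests were chosen with earlier results of these data known. Named with a test were members called, members whose groups did not overlap and the most abundant member of each role. Of the wider list, the 2 with the smallest p were named. NUP88, CSE1L, KPNA1, NUP133 and NUP153 met none of these rules, and a p-value or interval was printed for them too. NUP35, shown in a plot, and genes named beside the members were chosen after their values were seen. Alternatives covered scaling, pseudocount, filter, trend, replicate block and each library left out. Keeping only siDUSP6 replicate 1 was added after the data were seen. A planned protein comparison was not made.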

Additional observations from a re-analysis of the deposited data

How the results depend on the processing

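Beside 4 of the 38 genes called lower, the count was 2 after median-of-ratios scaling and 2 with no filter. It was 0 without the variance trend and 0 with the replicate block. It was 1, XPO1, whichever library was left out. With siDUSP6 replicate 1 alone, chosen after seeing the data because of the treatment field, it was 0, on the assumption that a lone library varies like siNC. The count of genes called higher stayed at 0 of 38 in each of these fits. Of 14 alternative fits, siDUSP6 replicate 1 alone not among them, XPO1 was called in 12, NUP210 in 6, KPNA2 in 4 and XPO7 in 3, always below 0. The median of the 38 was -0.0596 after median-of-ratios scaling, -0.069 after quantile normalization, -0.0663 with siDUSP6 replicate 1 alone, and -0.0874 to -0.0646 with 1 library left out. The matching medians of all tested genes were -0.003 and -0.0097 after the 2 scalings and -0.0198 with replicate 1 alone. Over all genes, 106 were called higher and 18 lower without the variance trend, and 114 lower with no filter. Left-out libraries gave 165 to 192 higher and 57 to 79 lower, and siDUSP6 replicate 1 alone gave 44 higher and 5 lower. Deviations from the group means of same-numbered libraries correlated across genes at 0.0252, -0.0365 and 0.048, so the numbers were not taken as pairs. With the replicate block 101 genes were called higher and 20 lower, and the adjusted p of XPO1 was 0.06547. Fits with fewer libraries, or with the block, have fewer residual degrees of freedom, and for the other settings the cause was not tested. DUSP6 was called in each fit, with adjusted p up to 0.01605. With depth unknown, no precision can be given for low genes.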
